A study of Homo sapiens with 6 samples.

Results

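The nuclear genes of the mitochondrial respiratory chain and ATP synthase were read in H3K27ac peak lists of Jurkat and 6T-CEM, human cell lines from acute lymphoblastic leukaemia of the T lineage (T-ALL). H3K27ac, acetylation of histone H3 at lysine 27, marks active promoters and enhancers. The genes were chosen by symbol: protein-coding genes on chromosomes 1 to 22 whose RefSeq symbol (GRCh38.p14) starts with NDUFA, NDUFB, NDUFC, NDUFS, NDUFV, UQCR, ATP5F1, ATP5M or ATP5P, or with COX4, COX5, COX6, COX7 or COX8. This gave 88 of 19126 autosomal protein-coding genes. A gene is called marked in a library when a peak lies within 1 kb of either annotated end. The chosen set holds 36 genes of complex I, 8 complex I assembly factors (NDUFAF symbols), 9 genes of complex III, 16 of complex IV and 19 of ATP synthase. The readthrough genes NDUFC2-KCTD14 and ATP5MF-PTCD1 share their start with NDUFC2 and ATP5MF, so their values repeat. COX7B, NDUFA1 and NDUFB11 lie on the X chromosome and were left out by the rule.

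The libraries were Jurkat H3K27ac replicate 1, Jurkat H3K27ac replicate 2 and a single 6T-CEM H3K27ac library, out of 6 samples of which 3 are IgG controls not used here. The assay is given as CUT&Tag, in which an antibody directs a transposase to cut and tag DNA at the mark, although the extraction text also speaks of sonication. Both cell lines are labelled as T-ALL cells, and the labels give neither genotype nor treatment for any sample. The series description mentions a treatment of 10 nM for 24 h and the title names the BET inhibitor GNE-987, so each library may come from treated or untreated cells. Whether the Jurkat replicates were separate cultures is not stated, so their spread may be technical, and no test between the lines was possible with 1 library of 6T-CEM.

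On autosomes the lists held 15757, 31558 and 34500 peaks, in the order Jurkat replicate 1, replicate 2, 6T-CEM, which is kept wherever 3 values follow each other. Their sequencing depth is unknown. Of the T-lineage genes CD3D, CD3E, CD3G, CD2, CD7 and LCK, 5, 6 and 6 were marked, with CD7 unmarked in replicate 1. The B-lineage genes PAX5, EBF1 and MS4A1, the erythroid gene HBB and the myeloid genes LYZ and MPO were unmarked in every library. Of the muscle genes, MYH7 and ACTN2 were unmarked and CKM had 0 bp, 1031 bp and 881 bp.

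The respiratory chain passes electrons from NADH and succinate to oxygen and pumps protons across the inner mitochondrial membrane, and ATP synthase uses the proton gradient to make ATP. Complex I (NDUF genes) oxidises NADH, complex III (UQCR genes) passes electrons to cytochrome c, and complex IV (COX genes) reduces oxygen. Most subunits are encoded in the nucleus and expressed in nearly all cells, while a few complex IV subunits have isoforms of heart and skeletal muscle, testis or lung. The promoters of these genes are known as targets of the transcription factors NRF1, GABP (an ETS factor), YY1 and the oestrogen-related receptors.

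Promoter sequences are shown for genes on which the results turn. They come from RefSeq (GRCh38.p14), run 5′ to 3′ in the direction of the gene, and cover 250 bases before a start site to 50 after its beginning. The table matched 71 of the 88 genes. Among the genes without a matched entry were ATP5F1B, ATP5F1D, ATP5MC3, ATP5MF, ATP5MF-PTCD1, ATP5MGL, COX4I2, COX6C, COX7A1, NDUFAF6, NDUFB5, NDUFB9, NDUFC2, NDUFS5, UQCRB and UQCRHL. The first 4 windows contrast a marked with an unmarked start, and capitals mark CG dinucleotides. COX6A1, the isoform of complex IV subunit 6A found in most tissues, was marked in both Jurkat libraries. COX6A2, its isoform of heart and skeletal muscle, was marked in none. For COX7A2, the widely expressed isoform of subunit 7A, the outer start at the annotated gene end had no peak, while the inner start had one in every library.
COX6A1 at chr12:120437863-120438162, plus strand: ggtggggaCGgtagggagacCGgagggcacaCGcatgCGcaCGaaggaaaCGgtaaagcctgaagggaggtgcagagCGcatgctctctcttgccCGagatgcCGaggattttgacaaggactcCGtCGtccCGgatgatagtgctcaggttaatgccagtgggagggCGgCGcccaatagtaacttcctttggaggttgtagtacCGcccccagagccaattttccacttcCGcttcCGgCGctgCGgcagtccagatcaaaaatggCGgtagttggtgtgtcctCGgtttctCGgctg
COX6A2 at chr16:31428311-31428610, minus strand: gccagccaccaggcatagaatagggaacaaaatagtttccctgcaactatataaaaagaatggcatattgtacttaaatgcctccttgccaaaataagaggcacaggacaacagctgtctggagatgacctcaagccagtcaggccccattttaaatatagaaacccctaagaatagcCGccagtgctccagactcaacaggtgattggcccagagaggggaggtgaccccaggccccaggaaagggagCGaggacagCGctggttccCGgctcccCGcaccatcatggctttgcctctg
COX7A2 outer start at chr6:75250249-75250548, minus strand: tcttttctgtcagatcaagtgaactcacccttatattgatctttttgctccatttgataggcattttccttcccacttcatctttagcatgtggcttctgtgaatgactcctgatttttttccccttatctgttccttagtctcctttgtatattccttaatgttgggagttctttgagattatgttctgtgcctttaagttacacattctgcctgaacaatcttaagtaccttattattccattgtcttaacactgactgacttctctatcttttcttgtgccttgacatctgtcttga
COX7A2 inner start at chr6:75243752-75244051, minus strand: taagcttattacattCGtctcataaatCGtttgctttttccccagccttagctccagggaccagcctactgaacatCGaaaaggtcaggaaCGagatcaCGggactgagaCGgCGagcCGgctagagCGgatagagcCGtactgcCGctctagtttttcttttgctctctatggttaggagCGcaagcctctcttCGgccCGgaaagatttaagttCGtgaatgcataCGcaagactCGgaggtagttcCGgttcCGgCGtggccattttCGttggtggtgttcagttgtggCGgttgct
The COX6A1 window held 22 CG dinucleotides and the COX6A2 window 5. The outer COX7A2 window held 0 at 37% G and C, and the inner window held 22 at 51.7%.

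The next 3 windows belong to broadly marked genes and show letters of the known regulators. Capitals mark exact matches, on either strand, to GCGCATGC or TGCGCA (NRF1), CCGGAAG (ETS factors), AAGATGG (YY1) and AAGGTCA (oestrogen-related receptors). ATP5PF encodes coupling factor 6 of the ATP synthase stalk, and its start lies within 1 kb of an end of GABPA, the gene of the DNA-binding subunit of GABP. ATP5F1C encodes the rotating gamma subunit, and COX8A the ubiquitous isoform of complex IV subunit 8.
ATP5PF at chr21:25735005-25735304, minus strand: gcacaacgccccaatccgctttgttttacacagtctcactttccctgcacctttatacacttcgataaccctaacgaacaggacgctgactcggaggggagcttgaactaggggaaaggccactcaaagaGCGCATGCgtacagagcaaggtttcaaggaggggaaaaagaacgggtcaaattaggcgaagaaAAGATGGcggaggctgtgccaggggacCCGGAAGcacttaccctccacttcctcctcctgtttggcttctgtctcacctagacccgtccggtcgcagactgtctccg
ATP5F1C at chr10:7787927-7788226, plus strand: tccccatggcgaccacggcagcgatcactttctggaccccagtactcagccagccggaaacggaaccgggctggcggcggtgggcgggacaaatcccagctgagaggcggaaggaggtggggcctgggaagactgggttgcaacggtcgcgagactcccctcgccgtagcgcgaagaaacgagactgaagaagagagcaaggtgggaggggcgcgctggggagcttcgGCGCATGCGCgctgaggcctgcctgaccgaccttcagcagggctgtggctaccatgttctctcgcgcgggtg
COX8A at chr11:63974370-63974669, plus strand: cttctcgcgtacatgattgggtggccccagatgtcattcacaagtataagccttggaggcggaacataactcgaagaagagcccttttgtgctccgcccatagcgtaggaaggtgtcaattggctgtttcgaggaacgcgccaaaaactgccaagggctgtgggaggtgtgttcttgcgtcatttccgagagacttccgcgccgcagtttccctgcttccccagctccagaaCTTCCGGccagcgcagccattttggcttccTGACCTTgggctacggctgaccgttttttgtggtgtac
The ATP5PF window held matches of NRF1, YY1 and ETS letters, the ATP5F1C window overlapping NRF1 matches on the opposite strands, and the COX8A window an ETS and an oestrogen-related receptor match. A match is a description of the letters and not a bound site.

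Most of the set was marked in each library. Jurkat replicate 1 marked 68 of 88 genes, or 77.3% (95% Clopper-Pearson interval 67.1 to 85.5), where 38.5% of all autosomal protein-coding genes were marked. Jurkat replicate 2 marked 57, or 64.8% (53.9 to 74.7), beside 34.7% of all genes. The 6T-CEM library marked 67, or 76.1% (65.9 to 84.6), beside 42.3% of all genes. Replicate 1, the shortest list, thus marked the most genes of the set. The intervals cover counting error only and treat genes as independent, which neighbouring genes are not.

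Ribosomal protein genes were marked more completely, with 70, 71 and 73 of 73 genes. Proteasome subunit genes were marked at 32, 33 and 27 of 38. The plot of shares by gene group shows these beside all genes. In replicate 2 the respiratory chain genes were 22.1 percentage points below the proteasome genes, and in 6T-CEM they were above them. These differences are given as descriptions, since genes are not replicates.

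**Figure D1:**
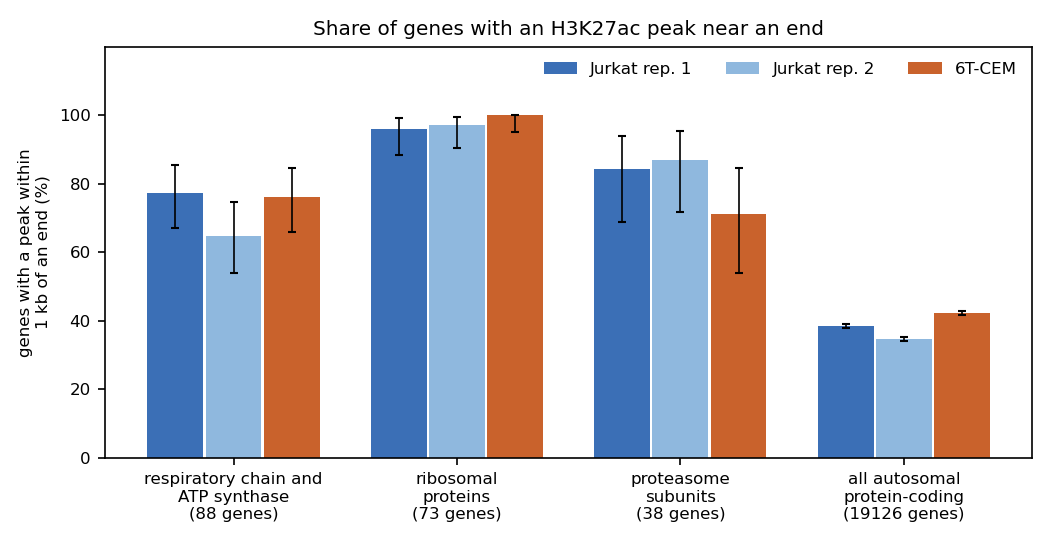
Bars give the percentage of genes with an H3K27ac peak within 1 kb of an end, for 88 respiratory chain and ATP synthase genes, 73 ribosomal protein genes, 38 proteasome genes and all 19126 autosomal protein-coding genes, with 95% Clopper-Pearson intervals. The respiratory chain bars stand at 77.3%, 64.8% and 76.1%, above those of all genes in each library and below those of the ribosomal proteins.

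Across libraries, 52 genes of the set were marked in all 3 and 13 in none. Over all genes these patterns held for 26.9% and 49.5%. Of the remaining 23 genes, 10 were marked in Jurkat replicate 1 and 6T-CEM but not replicate 2 (5.69% of all genes) and 2 in replicate 2 and 6T-CEM but not replicate 1 (3.13%). A further 5 were marked in replicate 1 alone (3.6%), 2 in replicate 2 alone (2.36%), 3 in 6T-CEM alone (6.59%) and 1 in both Jurkat libraries but not 6T-CEM (2.32%). The map of peak bases shows these patterns gene by gene.

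**Figure D2:**
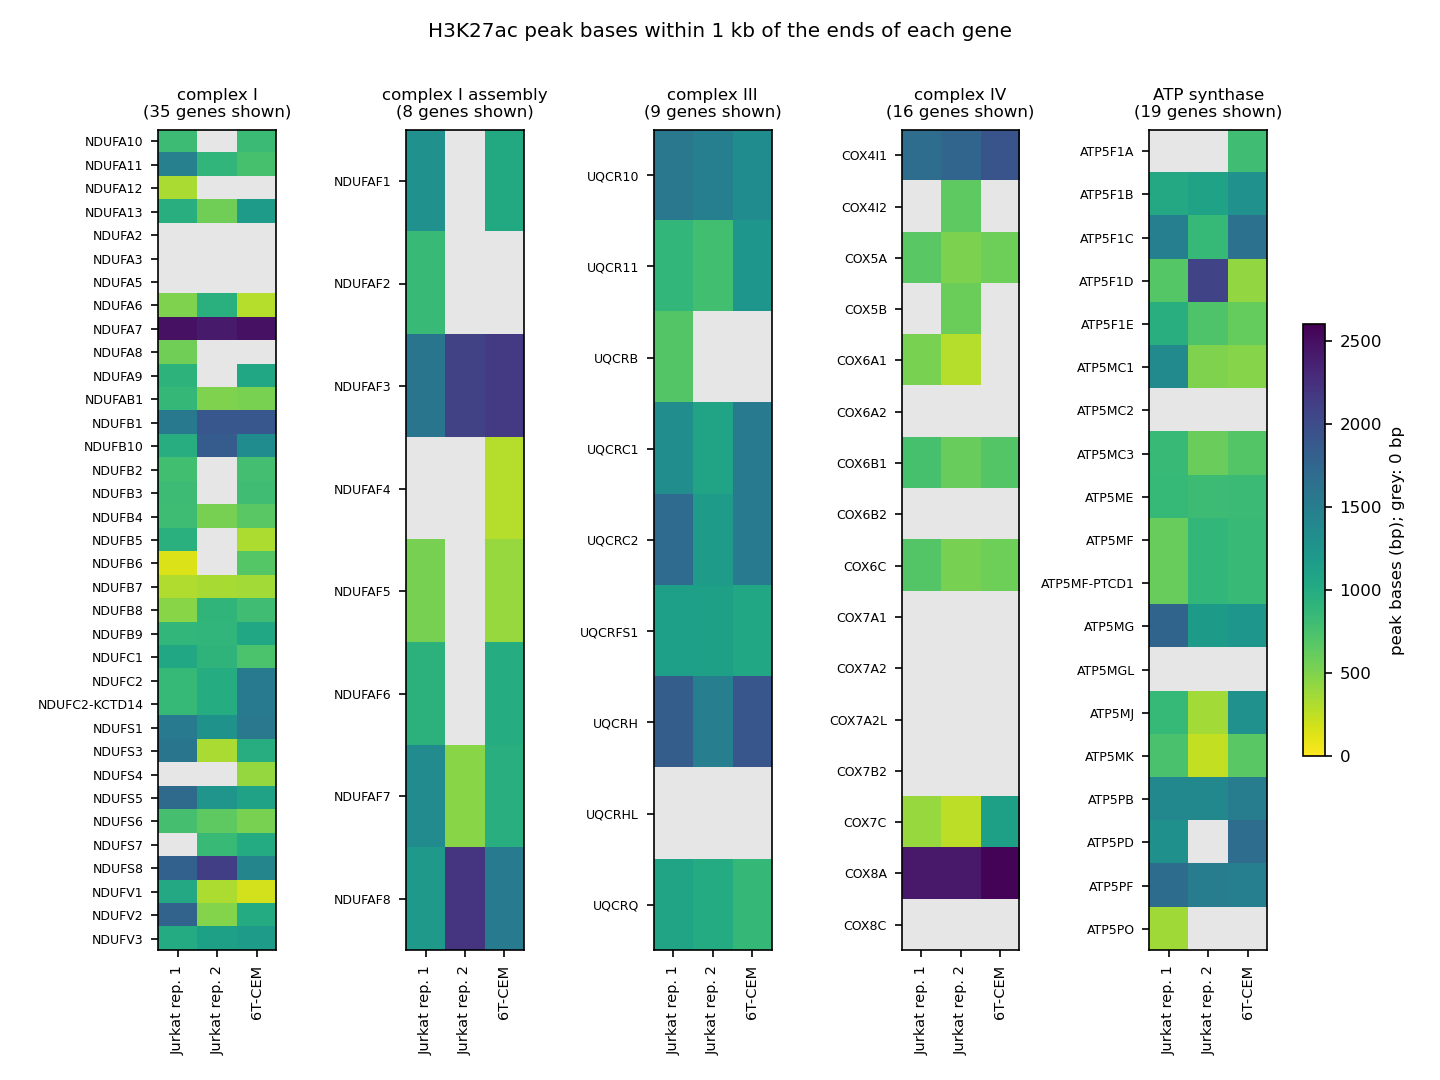
Each cell gives the bases covered by H3K27ac peaks within 1 kb of the ends of a gene, in bp, for 87 of the 88 genes with a column for each library and grey for 0 bp. Complex IV holds 7 of the 13 genes that are grey in all columns, and in Jurkat replicate 2, 3 of the 8 complex I assembly factors are marked. Over all genes 49.5% are marked in no library and 34.7% in replicate 2.

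By complex, the counts of marked genes were 30, 24 and 31 of 36 for complex I and 7, 3 and 7 of 8 for its assembly factors. They were 8, 7 and 7 of 9 for complex III, 7, 9 and 6 of 16 for complex IV, and 16, 14 and 16 of 19 for ATP synthase. Over all genes 38.5%, 34.7% and 42.3% were marked. Complex IV had the lowest share in replicate 1 and in 6T-CEM, and the assembly factors had the lowest in replicate 2. Complex IV includes isoforms of restricted expression, and COX7A2 and COX7A2L, whose peaks lay at inner starts that the rule does not read.

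Peaks lay at the starts of the genes. Strand was known for the 71 genes with a promoter entry. Of these, 55, 46 and 53 had a peak within 1 kb of the annotated start, beside 39.6%, 33.1% and 41.4% of all genes with an entry. Fewer, 6, 8 and 10, had one within 1 kb of the far end. These were 8.45%, 11.3% and 14.1% of the 71, above the 4.64%, 9.05% and 9.42% of all genes with an entry. A far-end peak without a start peak occurred for 1, 0 and 2 of the 71, beside 1.38%, 3.19% and 2.99% of all genes with an entry.

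NDUFB6, an accessory subunit of complex I, was marked at its far end alone. It had 133 bp in Jurkat replicate 1, 0 bp in replicate 2 and 681 bp in 6T-CEM, in peaks 22.4 kb and 20.7 kb downstream of its start that lie beside TOPORS, the gene of a ubiquitin and SUMO ligase. NDUFV1, the NADH-binding subunit of complex I, had start peaks in both Jurkat libraries, but its 173 bp in 6T-CEM came from the far end, at the edge of a 3199 bp peak. The marking of these genes in 6T-CEM was therefore not at their starts.

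The summit of the start peak, taken as that of highest fold for each gene, lay a median of 173 bp, 188.5 bp and 172 bp into the gene. Summits fell downstream of the start for 39 of 55, 38 of 46 and 41 of 53 genes (70.9%, 82.6% and 77.4%). Over all marked starts the median summit lay 165 bp, 213 bp and 208 bp inside and the downstream shares were 70.9%, 72.1% and 73.3%, so in replicate 1 the share was that of any marked gene. Within 500 bp of the start lay 90.9%, 91.3% and 86.8% of summits, compared with 81.3%, 69.4% and 70.0% over all marked genes. Ribosomal protein genes had 89.3%, 86.2% and 91.4% and proteasome genes 88.9%, 85.7% and 75%, so the trait was not particular to the set. Median widths of the set were 1002 bp, 887.5 bp and 957 bp, close to the 1037 bp, 855.5 bp and 982 bp of all marked starts. Median folds, the authors' enrichment values, were 6.52, 4.24 and 5.25, beside 5.73, 4.37 and 4.58 within the same lists.

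**Figure D3:**
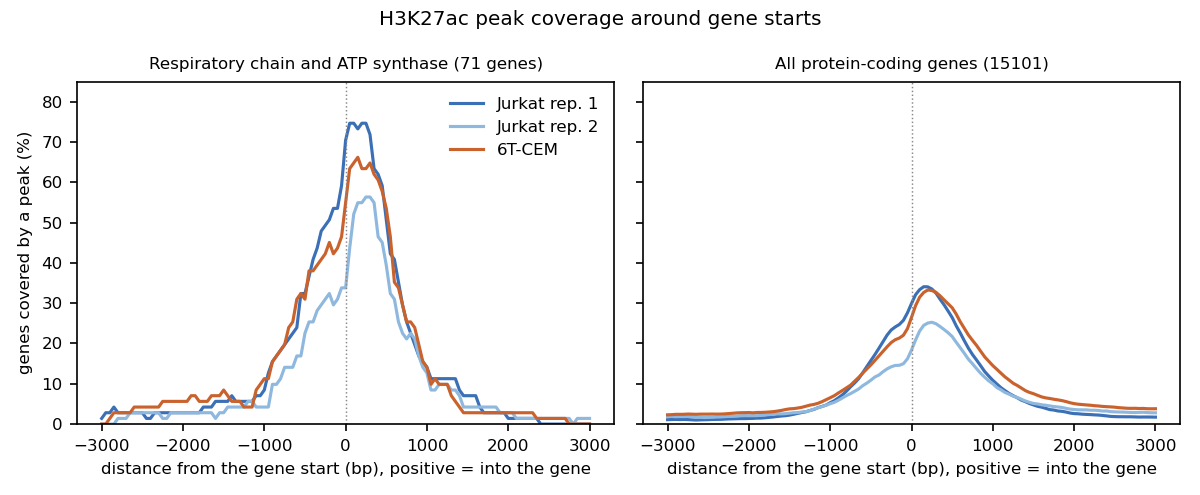
Lines give the percentage of genes covered by a peak at each distance from the annotated start, in bp with positive values inside the gene, for 71 respiratory chain and ATP synthase genes and for 15101 protein-coding genes. In the set, coverage was highest at 74.6% (50 bp inside), 56.3% (250 bp inside) and 66.2% (150 bp inside) in the library order of the text, and 2000 bp inside it was 1.41%, 2.82% and 2.82%.

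At the start base itself 70.4%, 33.8% and 54.9% of the 71 genes were covered. Over all genes with an entry these values were 29.9%, 18.4% and 26.5%. At 500 bp inside the gene 50.7%, 39.4% and 53.5% of the 71 were covered, and at 500 bp outside 32.4%, 22.5% and 31.0%. Over all genes with an entry these were 26.4%, 21.7% and 28.9% inside and 15.8%, 10.9% and 14.7% outside. Replicate 2 was thus lowest at each of these positions, in the set and over all genes.

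The 10 genes with most covered bases came from every complex. The window of a gene holds at most 4002 bp. COX8A had 2423 bp, 2419 bp and 2573 bp, under a single peak that spanned the whole short gene in each library. NDUFA7, an accessory subunit of complex I, had 2485 bp, 2413 bp and 2486 bp. Its start lies beside RPS28, a ribosomal protein gene, and its far end beside CD320, and both ends had peaks. These genes varied least between libraries among the 10.

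COX4I1, the ubiquitous isoform of the regulatory subunit 4 of complex IV, had 1667 bp, 1753 bp and 1920 bp at a start shared with EMC8. NDUFB1, a small membrane subunit of complex I beside CPSF2, had 1547 bp, 1891 bp and 1895 bp, with folds of 10.9, 9.71 and 10.4. Its summits lay 455 bp, 227 bp and 251 bp outside the gene, and its peak carried the highest start fold of the set in replicate 2 and 6T-CEM.

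UQCRH, the hinge subunit of complex III, had 1834 bp, 1491 bp and 1908 bp. Its peak was the widest at any start of known strand in the set, with 3785 bp, 3156 bp and 3793 bp. It reached from chromosome 1, 46300813 to 46304605 in 6T-CEM, with the summit 769 bp outside UQCRH on the side of LRRC41. In Jurkat replicate 1 and replicate 2 the summits lay 837 bp and 873 bp outside. The acetylated interval was thus centred on the shared upstream side in every library.

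NDUFAF3, an assembly factor of complex I beside the purine synthesis gene IMPDH2, had 1589 bp, 2086 bp and 2162 bp. NDUFAF8, another assembly factor, had 1196 bp, 2205 bp and 1516 bp. ATP5PF had 1677 bp, 1502 bp and 1478 bp, with summits 336 bp, 306 bp and 287 bp inside its annotated start. UQCRC2, a core subunit of complex III, had 1689 bp, 1160 bp and 1533 bp, and NDUFS8, an iron-sulphur subunit of complex I, 1793 bp, 2114 bp and 1418 bp. Of these 10 genes, 7 had another protein-coding gene end within 1 kb.

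At the low end of the genes marked in all libraries, NDUFB7, a complex I accessory subunit, had 307 bp, 342 bp and 360 bp. COX5A, a complex IV subunit on the matrix side, had 661 bp, 514 bp and 574 bp. ATP5MK, a small accessory subunit of ATP synthase, had 747 bp, 240 bp and 666 bp, lowest in replicate 2. NDUFA6, a complex I accessory subunit, had 507 bp, 947 bp and 294 bp, highest in replicate 2. NDUFV1 had 1026 bp, 318 bp and 173 bp.

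Close neighbours were common in the set. Another protein-coding gene end lay within 1 kb of an end for 44 of the 88 genes, or 50%, beside 29.0% of all genes. Of these 44, 37, 30 and 38 were marked, compared with 31, 27 and 29 of the 44 without a neighbour. A peak at a shared start cannot be assigned to either gene. Among genes without a neighbour, 70.5%, 61.4% and 65.9% of the set were marked, beside 30.0%, 27.4% and 34.3% of all such genes.

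The 13 genes without a peak near an end fell into separate kinds. Isoforms with restricted expression and retrocopy-like genes made up 7: COX6A2 and COX7A1 (heart and skeletal muscle isoforms), COX6B2, COX7B2 and COX8C (known from testis), and UQCRHL and ATP5MGL, copies related to UQCRH and ATP5MG. Their nearest peaks lay at distances from 2.71 kb for ATP5MGL in Jurkat replicate 2 to 1432 kb for COX7B2 in the same library. COX6A2 had none nearer than 29.6 kb, 23.2 kb and 22.9 kb.

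A further 3 of the 13 had peaks at an inner start instead. The annotated end of COX7A2 lies 6126 bp from its inner start at chromosome 6, 75243801, where Jurkat replicate 1 had a peak of 529 bp, replicate 2 one of 509 bp and 6T-CEM one of 691 bp. ATP5MC2, which encodes the c subunit of the proton-driven ring, had 585 bp, 819 bp and 1454 bp within 1 kb of its inner starts, the nearest of them 5093 bp from the annotated end. COX7A2L, a subunit 7A relative that joins complexes III and IV into supercomplexes, had 1010 bp, 0 bp and 883 bp within 1 kb of its table starts, all of it at the start 7740 bp from the annotated end. The rule on gene ends does not read these starts. With any start of the promoter table in place of the gene ends, 59, 49 and 56 of 71 genes were marked, beside 41.8%, 35.3% and 43.9% of all genes with an entry.

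The last 3 of the 13, NDUFA2, NDUFA3 and NDUFA5, encode accessory subunits of complex I that are part of the complex in most tissues, and had no peak near any start. The nearest peaks to NDUFA2 lay 5.39 kb, 80.7 kb and 5.27 kb away, those to NDUFA3 29.6 kb, 92.8 kb and 29.6 kb, and those to NDUFA5 122.7 kb, 146.6 kb and 146.1 kb. A gene without a peak is below the authors' threshold in that list, and absence of the mark cannot be read from it at unknown depth.

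Isoform families could be read side by side. COX4I1 was marked in all libraries, whereas COX4I2, the lung isoform, had 0 bp in Jurkat replicate 1 and 6T-CEM and 645 bp in replicate 2, in peaks at both ends. COX6A1 had 521 bp, 292 bp and 0 bp, and COX6A2 none. COX6B1 had 755 bp, 605 bp and 696 bp, and its testis isoform COX6B2 none. COX8A was under one peak in each library and COX8C had none. COX7A1 had none at its ends and COX7A2 was covered at its inner start. UQCRH was widely covered and UQCRHL was not.

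The genes of the c subunit, ATP5MC1, ATP5MC2 and ATP5MC3, encode the same mature protein with different targeting sequences. ATP5MC1 had 1356 bp, 502 bp and 471 bp, and ATP5MC3 848 bp, 597 bp and 696 bp, so each c subunit gene was covered in every library once the inner starts of ATP5MC2 are read. NDUFA4 and NDUFA4L2 are listed by RefSeq as COXFA4 and COXFA4L2 and so fall outside the symbol rule. COXFA4, a subunit now assigned to complex IV, had 964 bp, 0 bp and 1169 bp, and COXFA4L2, its hypoxia-inducible relative, 0 bp in every library.

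The Jurkat libraries differed in how much of the set they marked. Covered bases were higher in replicate 1 at 50 genes and in replicate 2 at 22, beside 27.6% and 16.2% of all genes. Of genes marked in any library, these were 50 and 22 of 75 in the set and 5274 and 3091 of 9667 over all genes. Replicate 1 marked 15 genes that replicate 2 did not, and replicate 2 marked 4 that replicate 1 did not. Over all genes these shares were 9.29% and 5.49%, compared with 17.0% and 4.55% of the set. Such shares depend on how many genes are marked at all. Of genes marked in replicate 1, 15 of 68 in the set and 1777 of 7356 over all genes were unmarked in replicate 2. These proportions were close. Of genes marked in replicate 2, 4 of 57 in the set and 1050 of 6629 over all genes were unmarked in replicate 1. The Jurkat lists also differ in their peak names, which start with Jur in replicate 1 and Jur-NE in replicate 2, a suffix the labels do not explain, and its part in the difference was not tested. Ribosomal protein genes had 2 and 3 such genes, and proteasome genes 2 and 3. When each list was cut to its 15757 autosomal peaks of highest −log10 q, the set had 29 and 2 such genes, beside 16.3% and 2.54% of all genes. Of genes marked in replicate 1, 29 of 68 in the set and 3124 of 7356 over all genes were then unmarked in replicate 2. Marked genes were then 68, 41 and 50, beside 38.5%, 24.7% and 27.8%.

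**Figure D4:**
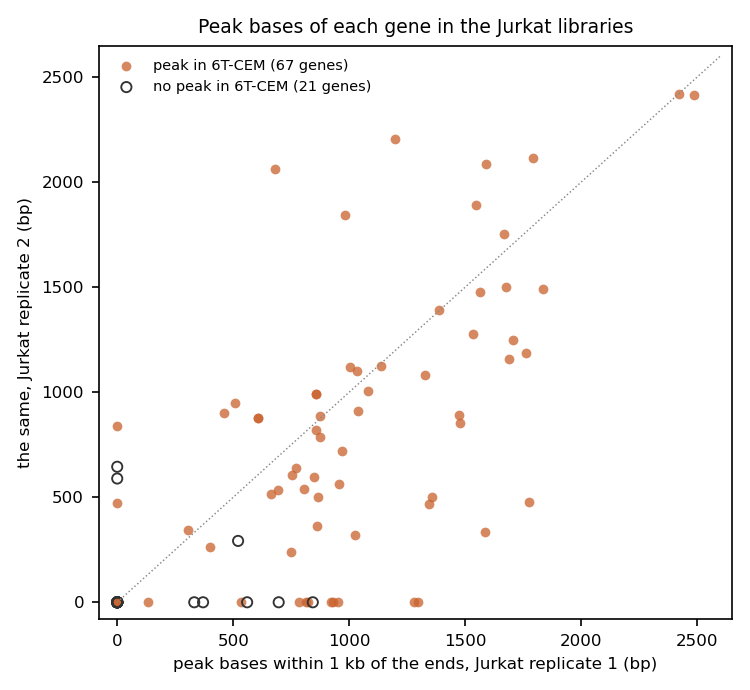
Each point is 1 of 88 genes, placed by the peak bases within 1 kb of its ends in Jurkat replicate 1 (x axis, bp) and replicate 2 (y axis, bp), with filled points for genes marked in 6T-CEM and the dotted line at equal values. The 15 genes on the horizontal axis away from 0 are marked in replicate 1 alone of the Jurkat libraries, and 10 of them are filled.

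Of the 15 genes, 8 encode complex I subunits: NDUFA8, NDUFA9, NDUFA10, NDUFA12, NDUFB2, NDUFB3, NDUFB5 and NDUFB6. The assembly factors NDUFAF1, NDUFAF2, NDUFAF5 and NDUFAF6 were among them, as were UQCRB of complex III and ATP5PD and ATP5PO of the peripheral stalk of ATP synthase. UQCRB had the highest fold, 10.7 over 696 bp in replicate 1, and was unmarked in replicate 2 and 6T-CEM. NDUFA9, a subunit near the ubiquinone site, had 922 bp at a fold of 8.65 in replicate 1 and 1043 bp in 6T-CEM, while the nearest replicate 2 peak lay 125.0 kb away. ATP5PD had 1298 bp in replicate 1 and 1668 bp in 6T-CEM.

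The replicate 1 peaks at these 15 genes had a median fold of 5.54 and a median width of 821 bp. At the 53 genes marked in both Jurkat libraries the replicate 1 medians were 6.49 and 1033 bp. Folds at the 15 ranged from 3.33 to 10.7, within the range at the 53, so the groups overlapped. The highest fold of the set at a start, 17.1, belonged to NDUFV2, a flavoprotein subunit of complex I, whose peak was 2029 bp wide in replicate 1, 478 bp at a fold of 3.20 in replicate 2 and 1001 bp at 4.81 in 6T-CEM.

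The 4 genes marked in Jurkat replicate 2 and not replicate 1 included NDUFS7, COX5B and COX4I2. NDUFS7, a core iron-sulphur subunit of complex I, had 841 bp in replicate 2 and 996 bp in 6T-CEM. COX5B, a zinc-binding subunit of complex IV, had 589 bp in replicate 2 alone, at a fold of 2.79.

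Between the lines, 6T-CEM had more covered bases than both Jurkat libraries at 29 genes of the set and fewer than both at 15. Over all genes these shares were 21.5% and 9.58%, compared with 33.0% and 17.0% of the set. Of genes marked in any library, the counts were 29 and 15 of 75 in the set. Over all genes they were 4106 and 1832 of 9667, so on that base the set lay close to all genes. For the 52 genes marked in all libraries, 6T-CEM was above both Jurkat libraries at 20, below both at 14 and between or equal to them at 18. Medians over these 52 were 1029.5 bp, 904.5 bp and 1073 bp. The median log2 ratio of 6T-CEM to the Jurkat mean, with 500 bp added, was 0.06 over the 75 genes marked anywhere and 0.10 over all genes marked anywhere. For Jurkat replicate 1 over 2 the same medians were 0.20 and 0.08. Without Jurkat replicate 2 the ratio of the set turned to −0.021. For the set the median log2 ratio between the lines was thus smaller than that between the Jurkat libraries, and over all genes it was larger. Opposite changes cancel in these medians, and only the ratio between the lines uses a mean of libraries. They therefore do not rank the size of the differences.

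Counted as marked in both Jurkat libraries alone or in 6T-CEM alone, 4 genes of the set separated the lines. Of all genes 2.32% were marked in both Jurkat libraries alone and 6.59% in 6T-CEM alone, beside 1.14% and 3.41% of the set. Of genes marked in any library, these were 443 and 1261 of 9667 over all genes and 1 and 3 of 75 in the set. ATP5F1A, the alpha subunit of the catalytic head of ATP synthase, had 0 bp in both Jurkat libraries and 801 bp in 6T-CEM, with a fold of 5.27 and a summit 229 bp outside the gene on the side of HAUS1. NDUFS4, a complex I subunit whose loss causes Leigh syndrome, had 410 bp at a fold of 8.79 in 6T-CEM. NDUFAF4, an assembly factor, had 294 bp at a fold of 2.22. COX6A1 alone was marked in both Jurkat libraries and not in 6T-CEM. Without Jurkat replicate 1, 13 genes were marked in 6T-CEM and not Jurkat, and without Jurkat replicate 2, 5 were. Over all genes these shares were 12.3% and 9.72%, compared with 14.8% and 5.68% of the set. In the opposite direction the counts were 3 and 6, or 3.41% and 6.82%, beside 4.67% and 5.91% of all genes.

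Apart from on-off differences, COX7C, a small subunit of complex IV, had 402 bp, 261 bp and 1119 bp. The Jurkat peaks were separate, with summits 191 bp inside the gene in replicate 1 and 908 bp inside in replicate 2, and the 6T-CEM peak spanned both positions. ATP5F1D, the delta subunit of the central stalk, had 682 bp, 2064 bp and 426 bp. NDUFA6, NDUFV1 and NDUFS8, given above, were the other genes furthest below both Jurkat libraries in 6T-CEM.

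Other genes of the pathway were read from lists not used by the symbol rule. Of the 4 complex II genes, which oxidise succinate, 4, 2 and 3 were marked, beside 38.5%, 34.7% and 42.3% of all genes. SDHB had 322 bp, 0 bp and 0 bp, and SDHD 1178 bp, 0 bp and 689 bp. The cytochrome c gene CYCS and CYC1, the gene of a complex III subunit, were marked in every library. CYCT was not matched on autosomes. Of 44 assembly and mitochondrial translation genes, 39, 26 and 33 were marked, with 13 marked in replicate 1 and not replicate 2 and 0 the other way. Over all genes the marked shares were again 38.5%, 34.7% and 42.3%, and those for the latter 2 counts were 9.29% and 5.49%. Of genes marked in replicate 1, 13 of 39 here and 1777 of 7356 over all genes were unmarked in replicate 2. Among the 13 were COX10, a heme A synthesis gene, with 1114 bp, 0 bp and 400 bp, and HIGD2A, a complex IV assembly gene, with 1510 bp, 0 bp and 0 bp.

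Of 17 regulators, 14, 10 and 14 were marked, beside 38.5%, 34.7% and 42.3% of all genes. NRF1 had 1679 bp, 1770 bp and 1824 bp, GABPA 1700 bp, 1607 bp and 1598 bp, and YY1 968 bp, 946 bp and 1272 bp. GABPB1, GABPB2, ESRRA, SP1, PPRC1, POLRMT and POLG were also marked in every library. TFAM, which packages and transcribes mitochondrial DNA, had 1114 bp, 0 bp and 624 bp. TFB1M, TFB2M and TWNK were likewise marked in Jurkat replicate 1 and 6T-CEM and not in replicate 2. Of genes marked in replicate 1, 4 of 14 regulators and 1777 of 7356 over all genes were unmarked in replicate 2. PPARGC1A and PPARGC1B, coactivator genes known from muscle and brown fat, and MTERF1 were unmarked in every library.

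Promoter letters were counted over the 71 genes with an entry, a gene counting when any of its windows held the motif on either strand. The set had 89 windows and all 15101 genes 21156. GCGCATGC occurred for 14 genes, or 19.7% (95% interval 11.2 to 30.9), beside 4.81% of all genes. AAGATGG occurred for 18, or 25.4% (15.8 to 37.1), beside 7.81%. CCGGAAG occurred for 20, or 28.2% (18.1 to 40.1), beside 16.7%. AAGGTCA occurred for 9, or 12.7% (5.96 to 22.7), beside 4.32%, but read on one strand only it occurred for 2.82% beside 2.16%.

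TGCGCA, which can overlap GCGCATGC and reads the same on both strands, occurred for 19 genes, or 26.8%, beside 12.5%. GGGCGG (SP1 and KLF factors) occurred for 45, or 63.4%, beside 64.6% (on one strand only, 29.6% beside 47.0%), CCAAT (NF-Y) for 27, or 38.0%, beside 41.8%, and TATAAA, a core promoter element, for 6, or 8.45%, beside 12.5%. Marked genes in general also differed from all genes: among all genes marked in Jurkat replicate 1, 7.83% held GCGCATGC, 11.4% AAGATGG, 3.28% AAGGTCA and 28.3% CCGGAAG. Among genes marked in replicate 2 and 6T-CEM the CCGGAAG shares were 26.4% and 24.99%, and the GCGCATGC shares 6.74% and 6.81%. Of the 43 members marked in all libraries, 34.9% held CCGGAAG and 14.0% GCGCATGC.

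**Figure D5:**
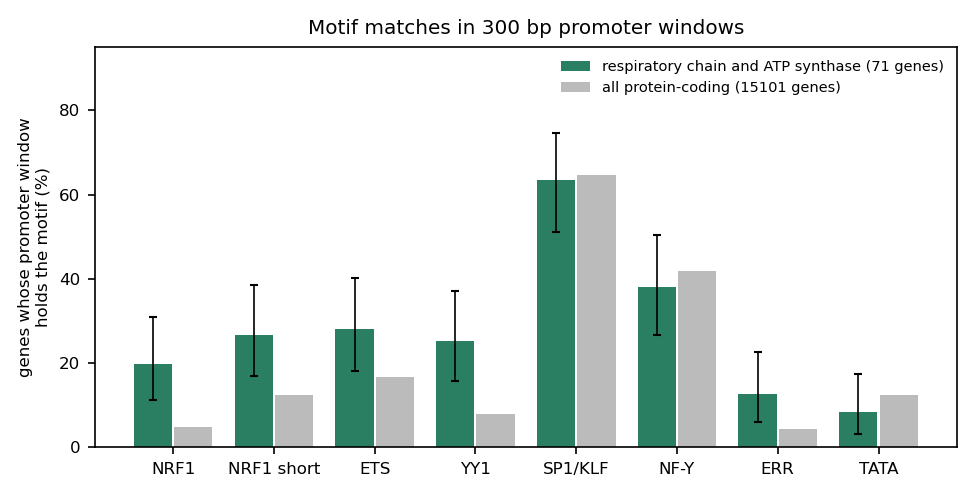
Bars give the percentage of genes whose 300 bp promoter windows hold each motif on either strand, for 71 respiratory chain and ATP synthase genes (green, with 95% Clopper-Pearson intervals) and 15101 protein-coding genes (grey). The NRF1, YY1 and ERR (oestrogen-related receptor) bars of the set stand at 19.7%, 25.4% and 12.7%, above the grey bars at 4.81%, 7.81% and 4.32%, and the SP1/KLF bars stand at 63.4% and 64.6%. On one strand only, the ERR shares are 2.82% and 2.16% and the SP1/KLF shares 29.6% and 47.0%. NRF1 short stands for TGCGCA.

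The windows of the set had a median of 61.7% G and C and 23 CG dinucleotides, taking the highest window of each gene, beside 64.7% and 25 over all genes. Members marked in all libraries had medians of 62% and 26. The 10 members with an entry and no peak near an annotated end had 56.5% and 18. The range of the latter, 5 to 31 CG dinucleotides, overlapped that of the former, 12 to 42. The latter include COX7A2, ATP5MC2 and COX7A2L, with 22, 24 and 19, which had peaks at inner starts. The medians therefore do not contrast marked with unmarked promoters.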

How the data were processed

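The members and lists were chosen with earlier results of these data known. The tools named per the submitters' processing notes are MACS2 2.2.7 and Bowtie2 2.2.5, with build hg38. Options, and any use of IgG as control, are not given in the sources used here. Deposited narrowPeak lists, 1 per library, give each peak's fold (a ratio over the caller's background), its −log10 p and −log10 q, and a score (10 times the −log10 q, cut to a whole number), all as the authors' values. The lowest deposited −log10 q was 2.01, 2.00 and 2.01.

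Bases under peaks were summed within 1 kb of both ends of each RefSeq gene (GRCh38.p14, the build of hg38), an overlap of 1 base sufficing. Strand and start sites came from the RefSeq promoter table. Named genes were the members unmarked everywhere, those separating the lines, the 10 with most and 5 with least bases, the 5 furthest outside the Jurkat values per direction, and isoform families. Others named were chosen after their values were seen. Alternatives were a −log10 q of 5, equal list length, windows of 0 bp and 2.5 kb, starts alone, fewer members, and leaving out each Jurkat library. Start sites of the promoter table and members without a close neighbour were alternatives added after seeing the data. Overlap code was tested on simulated data. Values of 1 member and of some marker genes are not reported here. Computation used matplotlib 3.10.9, SciPy 1.17.1, pandas 2.3.3, NumPy 2.4.6 and Python 3.11.15.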

Additional observations from a re-analysis of the deposited data

How the results depend on the processing

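Of 122 recomputed values, 86 stayed within 1.5 times the reported count, or within the spread given by the Jurkat libraries or the interval. All values kept to this at a window of 2.5 kb and without assembly factors and readthrough genes. Shares of all genes under the same setting stand in parentheses. With −log10 q of 5 or more, 2 genes were marked in both Jurkat libraries and not 6T-CEM (2.51%). At equal list length this count was 4 (4.93%), the genes marked in Jurkat replicate 1 and not 2 numbered 29 (16.3%) and the reverse 2 (2.54%). Median bases were then 0 in replicate 2 and 546 in 6T-CEM, where all genes had 0, and the median log2 ratio of 6T-CEM to Jurkat was −0.016 beside −0.12 for all genes. With a peak required on the end itself, 32 genes were marked in replicate 2 (18.7%), 31 in replicate 1 and not 2 (13.2%), 25 in all libraries (12.8%), 4 in Jurkat and not 6T-CEM (2.45%) and 22 in none (62.7%), with median bases of 1, 0 and 1. At the start end alone, with 71 genes, 2 were marked in replicate 2 and not 1 (3.74%) and 2 in Jurkat and not 6T-CEM (2.45%). With promoter table starts these were also 2 (4.05%) and 2 (2.42%), and 8 genes were unmarked (47.9%). Without members beside another gene end, 44 genes were counted, set here against all genes without such a neighbour. Of the 44, 31, 27 and 29 were marked (30.0%, 27.4% and 34.3%), 7 in replicate 1 and not 2 (7.69%), 23 in all (20.3%) and 1 in 6T-CEM alone (6.64%), and the log2 ratio was −0.076 beside 0.14. Leaving out either Jurkat library gave 54 to 62 genes marked in Jurkat and 6T-CEM (30.0% to 32.5%), 3 to 6 in Jurkat and not 6T-CEM (4.67% to 5.91%), 5 to 13 in 6T-CEM and not Jurkat (9.72% to 12.3%), 15 to 18 in none (51.8% to 53.1%), and log2 ratios of −0.021 to 0.094 (0.03 to 0.24 for all genes). With motifs on one strand only, CCGGAAG was held by 14.1% of members, GGGCGG by 29.6%, CCAAT by 23.9% and AAGGTCA by 2.82%, beside 9.46%, 47.0%, 24.4% and 2.16% of all genes. Fewer genes, peaks or strands lower a count by construction, and otherwise the cause was not tested. Unknown depth limits every statement that a gene is unmarked. No paired analysis was possible because 6T-CEM has a single H3K27ac library and no test was run.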
